A study of Canis lupus familiaris with 14 samples.

Results

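MYOC, CYTL1, CHAD and CLDN11, genes of secreted proteins, matrix and cell contacts, and FMO2, the gene of an enzyme, had lower RNA in canine osteosarcoma than in normal bone. These 5 genes were selected on that difference from the 30951 genes of the count table. The series holds 14 polyadenylated RNA libraries from 7 pet dogs with osteosarcoma of a limb, named A to G, each sampled before chemotherapy. From every dog 1 library came from the primary tumor and 1 from the second phalanx (P2) as matched normal bone. Dogs A and F were Golden Retrievers, B a Rottweiler, C a Doberman Pinscher, D and G Greyhounds and E a Great Pyranees as the labels spell it. The tumors lay in the distal radius in dogs A, C, E and F, the proximal humerus in D, the distal femur in B and the distal tibia in G. The normal bone is therefore from another bone of the body than the tumor, and its RNA was extracted by a protocol made for bone, whereas tumor RNA was extracted with Tri-Reagent and mechanical homogenization, so that tissue, bone site and extraction cannot be told apart. By the study's own account, the bone pieces had been cleared of marrow and of cells outside the mineralized matrix. In such bulk samples, fewer cells of a type and less RNA per cell cannot be told apart either.

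The 5 genes have unlike roles. MYOC encodes myocilin, a secreted glycoprotein with an olfactomedin domain that is best known from the drainage tissue of the eye and from glaucoma. CYTL1 encodes cytokine-like protein 1, a small secreted protein known from cartilage and from blood progenitor cells. CHAD encodes chondroadherin, a leucine-rich repeat protein of the cartilage matrix that binds collagen and cell-surface integrins. CLDN11 encodes a claudin, a membrane protein that builds tight junctions, best known in the myelin of the central nervous system and in the Sertoli cells of the testis. FMO2 encodes a flavin-containing monooxygenase, an enzyme that oxidizes nitrogen and sulfur in foreign chemicals and is abundant in lung.

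Total counts ran from 22564544 to 34479429 in bone and from 18650945 to 32887213 in tumor, so that 1 count was worth 0.024 to 0.0626 CPM, the counts of a gene scaled to a common library total with factors from the trimmed mean of M-values (TMM). CPM is not divided by gene length, and levels are therefore compared between libraries and not between genes. The bone library of dog E stood apart in composition, since 1 gene, ENSCAFG00000017018, took 29.5% of its counts against 1.3% to 11.6% in the other bone libraries, and the same gene took 26.3% of the counts of that dog's tumor. Adipocyte genes, summed over the 6 of 7 listed that have a symbol here, spanned 469 to 2959 CPM in bone, with dog D highest, and 50 to 219 CPM in tumor. Schwann cell genes, 6 of 7 listed, summed to 20.1 to 136 CPM in bone and 4.77 to 19.4 CPM in tumor. Osteocyte genes, 5 of 5, summed to 273 to 4649 CPM in bone and 3.9 to 467 CPM in tumor, whereas the 2 of 9 skeletal muscle genes with a symbol, ACTA1 and MYL1, summed to 1.3 to 26.5 CPM in bone and 13.5 to 232 CPM in tumor. For muscle, ACTA1 made up most of the sum, with a log2 change of 2.40 (edgeR FDR 0.229), and MYL1 was at -2.30 (edgeR FDR 0.535), so that neither passed the test. The sums of adipocyte, Schwann cell and osteocyte genes were lower in the tumor of 7 of 7 dogs, like most values of the 5 genes, and their part in the results was not tested.

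The 5 genes were chosen on the values of tumor against bone, and they were proposed with their spread between bones in view. In a paired edgeR quasi-likelihood fit over 27655 genes, 494 genes (1.79%) were lower in tumor when an adjusted p (false discovery rate, FDR) under 0.05 was required together with a change over 2-fold and more than 10 normalized counts on average, and 372 were higher. All 5 genes lie among the 494, as their choice requires, and nothing is read from that count. The last gene inside the FDR threshold, at 0.0498, was ENSCAFG00000011233 with a log2 change of -2.86, and the first outside, at 0.0501, was ENSCAFG00000011781 with -1.23. All 7 tumor values lay below all 7 bone values for 414 genes (1.50%), and MYOC and FMO2 are 2 of these, whereas CYTL1, CHAD and CLDN11 overlapped between the groups. The comparison for each gene is given below as a description.

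MYOC, the secreted olfactomedin protein, was measured in bone at 102 CPM in dog A, 102 in B, 473 in C, 156 in D, 5.07 in E, 88.1 in F and 94.6 in G. Tumors of the same dogs held 0.564, 0.534, 0, 0.635, 1.18, 0.0597 and 0.782 CPM. The groups did not overlap, and they came closest in dog E, whose phalanx was far below the other bones and whose tumor was the highest of the tumors. Means were 146 ± 151 CPM in bone and 0.536 ± 0.408 CPM in tumor (SD, n = 7 dogs), and the log2 change was -7.74 (SE 1.14). The tumor level of MYOC was 0.408% to 0.827% of the bone of the same dog in A, B, D and G. In tumor F 2 counts were left, 0.0677% of bone with a 95% interval of 0.0082% to 0.245%, and in tumor C no count was found, which allows at most 0.0283% by a limit of 3 counts. Dog E kept 23.3% (14.8% to 35.4%). All such intervals are exact binomial intervals on the counts of a pair of libraries and cover counting error only, as there is 1 library for each dog and tissue.

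FMO2, the monooxygenase, was at 5.72 CPM in the bone of dog A, 16.1 in B, 6.39 in C, 103 in D, 5.07 in E, 4.99 in F and 10.4 in G. The bone of dog D thus stood far above the other bones, which lay within 4.99 to 16.1 CPM. No count of FMO2 was found in the tumors of A, B, C, F and G, 3 counts were found in tumor D (0.0952 CPM) and 2 in tumor E (0.0842 CPM). Over all dogs, 5400 counts in bone stood against 5 in tumor. Means were 21.7 ± 36.1 CPM in bone and 0.0256 ± 0.0439 CPM in tumor (SD, n = 7 dogs), and the fitted log2 change of -9.36 (SE 0.65) depends on the prior count, since most tumors were at 0. For tumor D the level left was 0.0923% of bone (0.019% to 0.27%) and for tumor E 1.66% (0.199% to 6.14%). Where no count was found, the limit of 3 counts allows 0.525% in B, 1.19% in G, 1.79% in F, 2.09% in C and 3.29% in A, so that the depth of the low bones sets how far the loss of FMO2 could be followed.

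CYTL1, the small secreted protein of cartilage, had the most uneven bone values of the 5 genes. Its level was 163 CPM in the bone of dog A, 135 in B and 215 in C, 13.2 in G, 0.456 in F (19 counts), 0.0793 in D (3 counts) and 0 in E. These values span all levels from abundant to the limit of counting, and 3 bones were at or close to the level of tumors. In tumors the gene was at 0 in C, D and E and between 0.119 and 0.168 CPM in A, B, F and G, with 16 counts in all 7 libraries. Means were 75.3 ± 92.8 CPM in bone and 0.0825 ± 0.0793 CPM in tumor (SD, n = 7 dogs), with a fitted log2 change of -8.73 (SE 1.32) that depends on the prior count and the tool, at -7.33 with a prior count of 2 and -6.65 in DESeq2. The loss could be measured in these dogs, in which tumors held 0.0768% (A, 0.0093% to 0.278%), 0.125% (B, 0.0459% to 0.273%), at most 0.0621% (C, no count) and 1.25% (G, 0.338% to 3.21%) of their bone. Tumor F, with 4 counts, held 26.2% of a bone that had 19, with an interval of 6.47% to 78.7%. In dogs D and E both tissues were at or under 3 counts, so no fold is given, and in these animals CYTL1 cannot be said to have been lost.

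**Figure D1:**
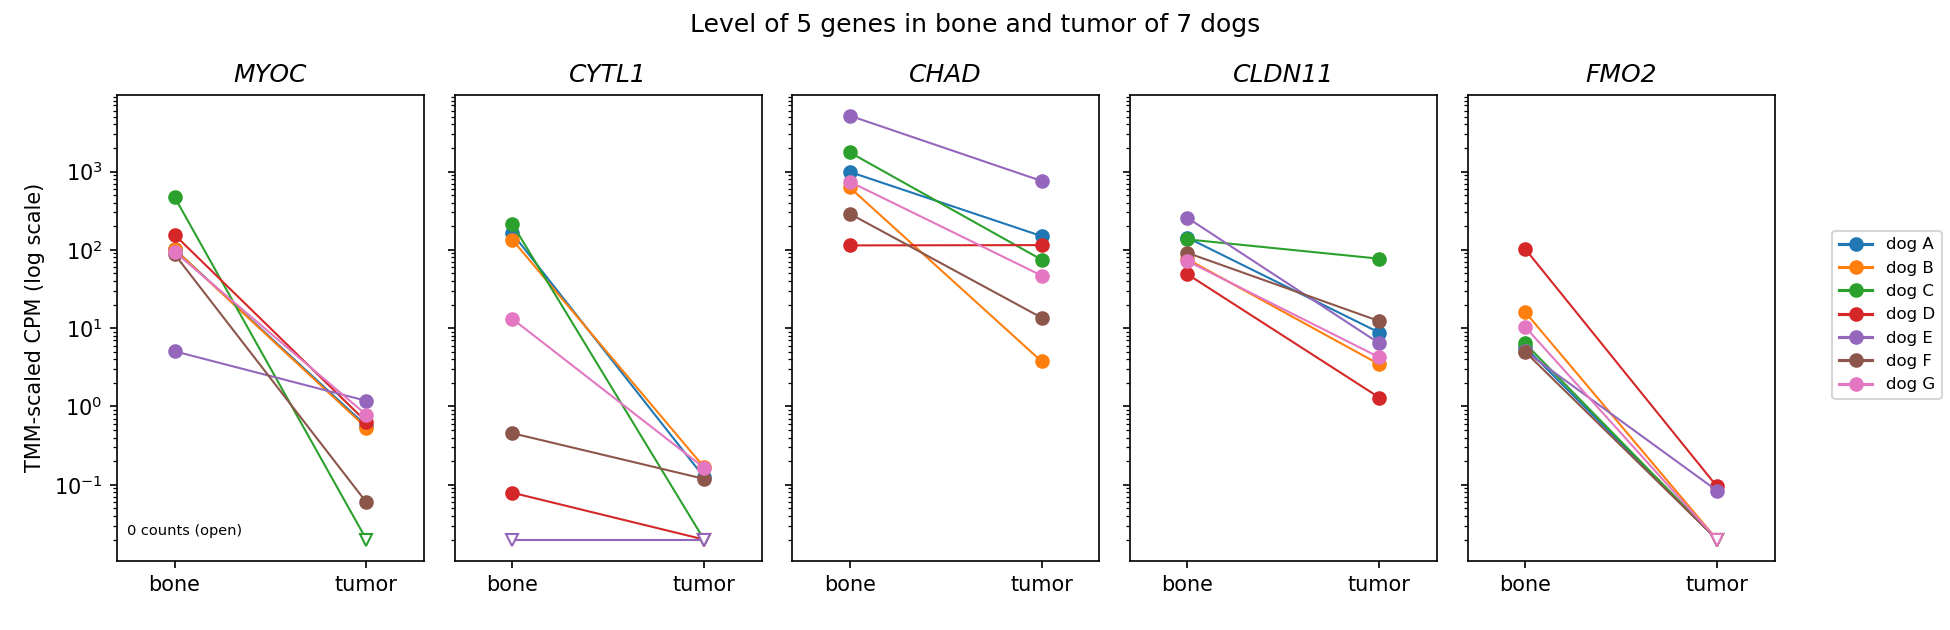
CPM of MYOC, CYTL1, CHAD, CLDN11 and FMO2 in the 7 bone and 7 tumor libraries, with the libraries of 1 dog joined by a line (log scale, a value of 0 drawn at the foot of the panel). The tumor end of each line is the lower one except for CHAD in dog D, where the values are 114 and 115 CPM, and CYTL1 in dog E, where both are 0.

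CHAD, the cartilage matrix protein, behaved otherwise, because a clear level remained in most tumors. Bone values were 989 CPM in dog A, 626 in B, 1756 in C, 114 in D, 5169 in E, 289 in F and 741 in G, a 45.2-fold range. Tumor values were 149.8, 3.76, 74.8, 115, 758, 13.6 and 46.9 CPM in the same order, a 202-fold range. The groups overlapped: 4 tumors lay below the lowest bone, and 4 bones lay below the highest tumor, which was that of dog E. Means were 1384 ± 1752 CPM in bone and 166 ± 266 CPM in tumor (SD, n = 7 dogs), and the log2 change was -3.69 (SE 0.76). The threshold on which CHAD was chosen was no longer met without dog A, C, E, F or G, with FDRs of 0.0506 to 0.083, nor at 0.0889 without the pairing by dog. CHAD was lower in the tumor of 6 of 7 dogs, and what was left ranged from 0.601% of bone in B (0.503% to 0.712%) through 4.26% in C, 4.71% in F, 6.32% in G, 14.7% in E and 15.2% in A to 100.4% in D (96% to 105%). Dog D, the Greyhound with a humerus tumor, had the lowest CHAD of all bones, and its tumor was not below it. The name of a gene lost from tumors therefore does not hold for CHAD in dog D.

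CLDN11, the tight junction protein, was the steadiest of the 5 genes in bone, at 143 CPM in dog A, 76 in B, 136 in C, 48.8 in D, 256 in E, 91.5 in F and 71.9 in G. Tumors held 8.77, 3.45, 77.1, 1.3, 6.4, 12.3 and 4.24 CPM. Tumor C alone reached into the range of bone, above the bones of B, D and G, and the other 6 tumors lay below the lowest bone. Means were 118 ± 70 CPM in bone and 16.2 ± 27.1 CPM in tumor (SD, n = 7 dogs), with a log2 change of -3.91 (SE 0.54) and a lower tumor value in 7 of 7 dogs. The level left was 2.5% to 6.13% of bone in A, B, D, E and G, 13.4% in F (12.1% to 14.8%) and 56.7% in C (53.6% to 60%). Every tumor still had counts of CLDN11 and CHAD, at 41 counts or more, whereas counts of FMO2 were found in 2 tumors.

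**Figure D2:**
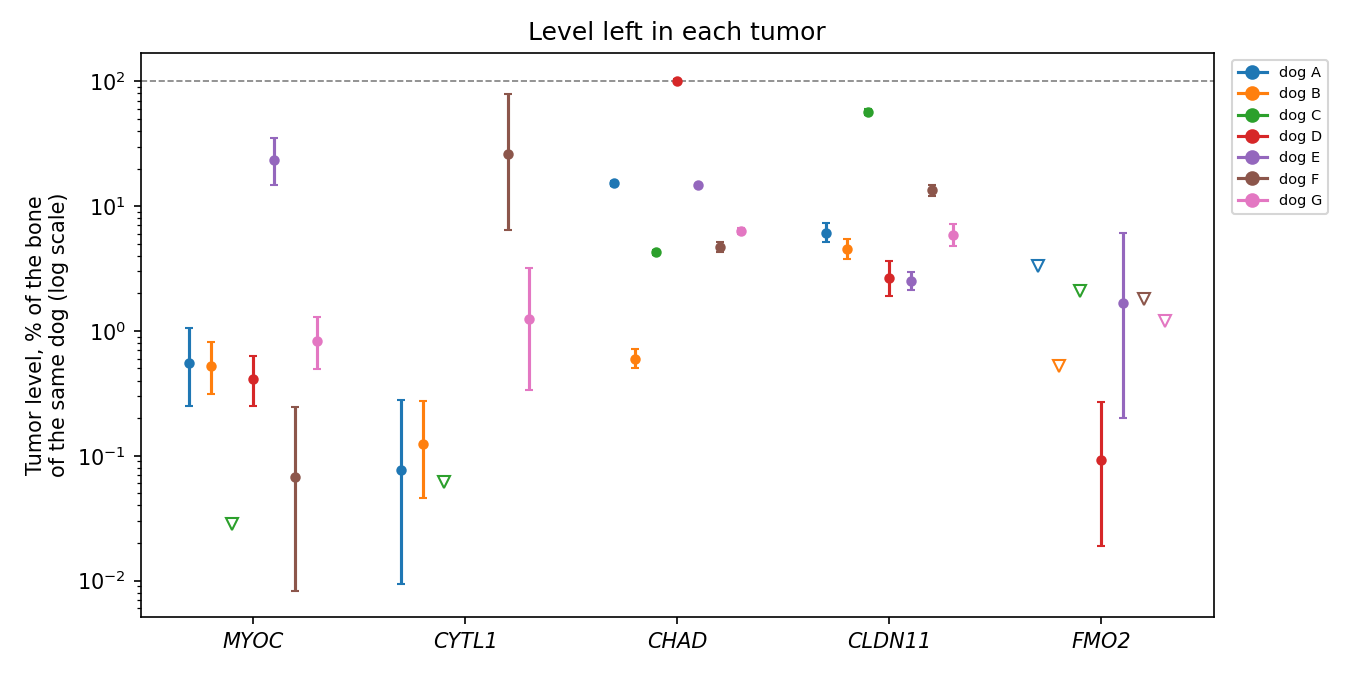
Tumor CPM as a percent of the bone CPM of the same dog (log scale) for the 5 genes, with 95% intervals from counting error; downward marks are limits of 3 counts where the tumor had none. MYOC values under 1% are seen in A, B, D, F and G, with the limit for C lower still, whereas CLDN11 stayed at 2.5% or above and CHAD reached 100.4% in dog D.

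The dog with the largest share left was not the same for each gene. Dog E kept the most MYOC, dog F the most CYTL1, dog D the most CHAD and dog C the most CLDN11. For MYOC in E, CYTL1 in F and CHAD in D the large share goes with a low bone value, which is the lowest of the 7 for MYOC and CHAD, whereas for CLDN11 in C the bone value of 136 CPM lay between those of A and F and the tumor value of 77.1 CPM was the highest. Tumor C also had the highest BGLAP, a bone matrix gene of osteoblasts, at 298 CPM against 35.8 to 185 CPM in the other tumors. Its sum of osteocyte genes, 467 CPM, was 431 CPM of DMP1, whereas the other 4 listed genes, SOST, MEPE, PHEX and FGF23, were higher in tumor E than in tumor C. The part of bone cells in the CLDN11 left in tumor C was not tested.

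Bone pieces of the 7 dogs differed widely in 4 of the 5 genes. The genes were proposed with this spread in view, so the ranks below are a description and no independent result. The spread is given as the SD over 7 dogs of log2(CPM + 0.5), for which the median over 14107 genes with a mean of at least 1 CPM in bone was 0.33. CYTL1 had an SD of 4.02, the second largest of all these genes. The SD was 1.94 for MYOC, 1.77 for CHAD and 1.52 for FMO2, and 0.617%, 0.829% and 1.47% of genes had a larger one. CLDN11, at 0.79, was exceeded by 8.42% of genes. In tumors the order changed, with an SD of 2.42 for CHAD and 1.71 for CLDN11 beside a median of 0.55 for the same genes, whereas MYOC (0.63), CYTL1 (0.20) and FMO2 (0.12) were close to their floor, at which the added 0.5 CPM hides differences. Dog E by itself made much of the spread of MYOC, whose SD was 0.92 without it, and dog D made that of FMO2, whose SD was 0.64 without it. The bones of the hind limb dogs, B and G, lay inside the range of the 5 forelimb dogs for each of the 5 genes, and with 2 hind limb dogs this is not a test.

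The genes were not high in the same bones. From high to low, the bones ranked C, D, A, B, G, F, E for MYOC and C, A, B, G, F, D, E for CYTL1. For CHAD the order was E, C, A, G, B, F, D, for CLDN11 it was E, A, C, F, B, G, D, and for FMO2 it was D, B, G, C, A, E, F. Dog E was thus highest for CHAD and CLDN11 and lowest for MYOC and CYTL1, and dog D was lowest for CHAD and CLDN11 and highest for FMO2.

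**Figure D3:**
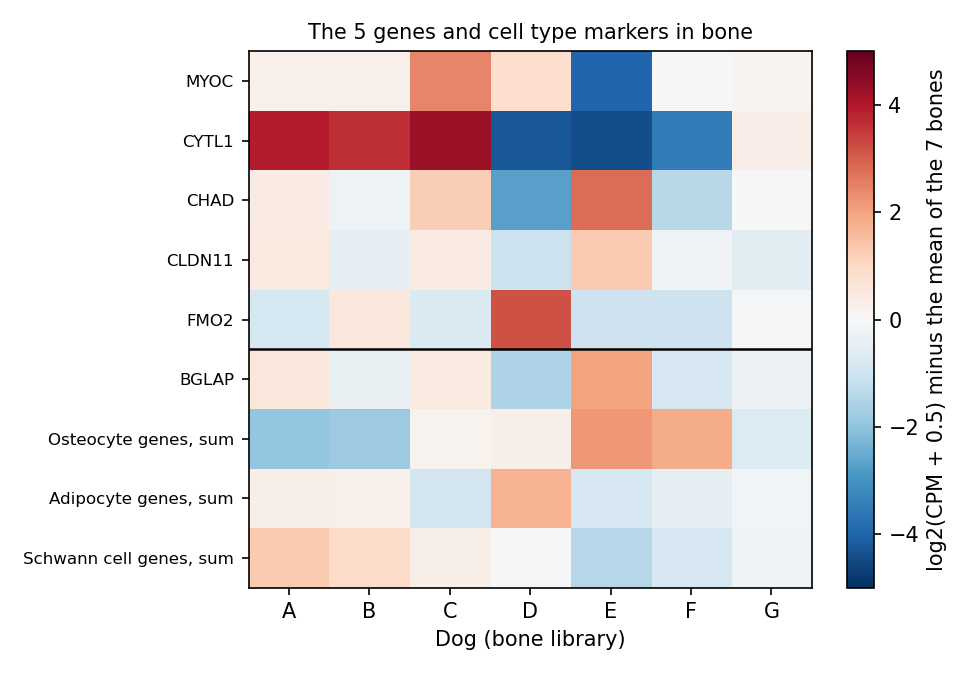
Levels of the 5 genes in the 7 bones as log2(CPM + 0.5), each centred on its own mean over the bones, with BGLAP and the summed marker lists beneath. CHAD, CLDN11 and BGLAP share their extremes in dogs E and D, whereas FMO2 and the adipocyte genes are highest in dog D.

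Relations between the genes across bones were tested over the 7 dogs by an exact permutation test of all 5040 pairings, two-sided throughout, with Benjamini-Hochberg adjustment over the 10 pairs. CYTL1 fell into separate clusters of bones, A, B and C high, G between and D, E and F near 0, and no pooled correlation is given for its pairs. Of the other 6 pairs, 2 were positive and 4 negative. CHAD and CLDN11 rose and fell together with r = 0.91 (exact permutation p = 0.00754, adjusted p = 0.0754) and rho = 0.82 (exact permutation p = 0.0341, adjusted p = 0.331), which does not pass the adjustment. Without D and E, the bones farthest from the median CHAD level, r was 0.59, so that the relation leans on these bones. Among 14106 other genes, 166 (1.18%) had an r with CHAD at least as high as that of CLDN11. CLDN11 and FMO2 ran opposite with r = -0.76 (exact permutation p = 0.0442, adjusted p = 0.221) and rho = -0.75 (exact permutation p = 0.0663, adjusted p = 0.331), and r was -0.68 without D and E. CHAD and FMO2 had r = -0.71 (exact permutation p = 0.0871, adjusted p = 0.29) and rho = -0.43 (exact permutation p = 0.354), and r went to 0.02 without D and E. For MYOC, r was -0.50 with CHAD (exact permutation p = 0.268; rho = -0.14, p = 0.783), -0.57 with CLDN11 (exact permutation p = 0.168; rho = -0.29, p = 0.556) and 0.28 with FMO2 (exact permutation p = 0.37; rho = 0.57, p = 0.2). Without dog E the sign of r turned for MYOC with CHAD, to 0.39, and with CLDN11, to 0.32. Without both C and E, r of MYOC was -0.70 with CHAD, -0.63 with CLDN11 and 0.94 with FMO2.

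Marker genes of other cell types were set against 4 of the genes in bone, CYTL1 aside, as 16 relations chosen after the values were seen. The gene closest to CHAD and CLDN11 among these lists was BGLAP, which encodes osteocalcin, a bone matrix protein of osteoblasts, and which alone of the 5 listed osteoblast genes has a symbol here. In bone, BGLAP was at 884 CPM in dog A, 456 in B, 823 in C, 206 in D, 2434 in E, 331 in F and 488 in G. CHAD followed it with r = 0.97 (exact permutation p = 0.000595, adjusted p = 0.00952 over 16 relations) and rho = 0.96 (exact permutation p = 0.00278, adjusted p = 0.0444), and r was 0.90 without D and E. CLDN11 followed it with r = 0.96 (exact permutation p = 0.00218, adjusted p = 0.0175) and rho = 0.86 (exact permutation p = 0.0238, adjusted p = 0.19), and r was 0.80 without D and E. Osteocyte genes were also highest in dog E but did not follow CHAD over the bones (r = 0.15, exact permutation p = 0.735; rho = 0.04, p = 0.963). The adipocyte sum ran opposite to CHAD with r = -0.78 (exact permutation p = 0.0431, adjusted p = 0.172) and rho = -0.64 (exact permutation p = 0.139), and r was -0.48 without C and D. Only the relations of CHAD and CLDN11 with BGLAP passed the adjustment of r over the 16.

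CHAD also went with the gene that took the largest share of counts in dog E. That relation was chosen after the values were seen, in the bone where CHAD was also highest, and its p-values are not adjusted. On CPM without TMM scaling, CHAD and ENSCAFG00000017018 had r = 0.95 (exact permutation p = 0.00198) and rho = 0.89 (exact permutation p = 0.0123) over the 7 bones, and r was 0.88 without D and E. Scaling lifted CHAD in the bone of dog E from 3312 to 5169 CPM, with a TMM factor of 0.641. With the plain library total, CHAD and BGLAP still had r = 0.97 and CLDN11 and BGLAP r = 0.88. With TMM scaling and without dog E the values were 0.96 and 0.91. In the 7 tumors, 3 relations were computed after the data were seen. CHAD and CLDN11 had r = 0.05 (exact permutation p = 0.916) and rho = 0.07 (exact permutation p = 0.906). CHAD and BGLAP had r = 0.61 (exact permutation p = 0.151, adjusted p = 0.454) and rho = 0.64 (exact permutation p = 0.139). CLDN11 and BGLAP had r = 0.41 (exact permutation p = 0.385, adjusted p = 0.577) and rho = 0.39 (exact permutation p = 0.396). Whether the relation of CHAD and CLDN11 differs between bone and tumor was not tested.

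FMO2 was highest in the bone with the most fat signal. Dog D had 2959 CPM of summed adipocyte genes and 447 CPM of PLIN1, which encodes the coat protein perilipin 1 of lipid droplets, against 23.5 to 207 CPM of PLIN1 in the other bones. Over the 7 bones FMO2 and the adipocyte sum had r = 0.90 (exact permutation p = 0.0157, adjusted p = 0.0836) and rho = 0.57 (exact permutation p = 0.2), and r was 0.60 without C and D. Without dog D alone it was 0.57 (exact permutation p = 0.215), so the relation rests on that bone. The bone of dog A, second in the adipocyte sum at 1076 CPM, had 5.72 CPM of FMO2, close to the lowest.

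For CYTL1 the order of bones is set beside the summed Schwann cell genes, which mark the glia of peripheral nerve. Their sum was 136 CPM in the bone of A, 108 in B, 66.9 in C, 53.5 in D, 47.1 in G, 30.9 in F and 20.1 in E. The bones of A, B and C, which had the most CYTL1, were thus also the highest in these genes, and that of E was lowest in both, whereas D had more of the sum than G and far less CYTL1. CLEC3A, a gene of the cartilage list whose values are given below, ranked the bones C, A, B, G, F, D, E, the same order as CYTL1. The part of nerve or of cartilage in the bone pieces with high CYTL1 was not tested.

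**Figure D4:**
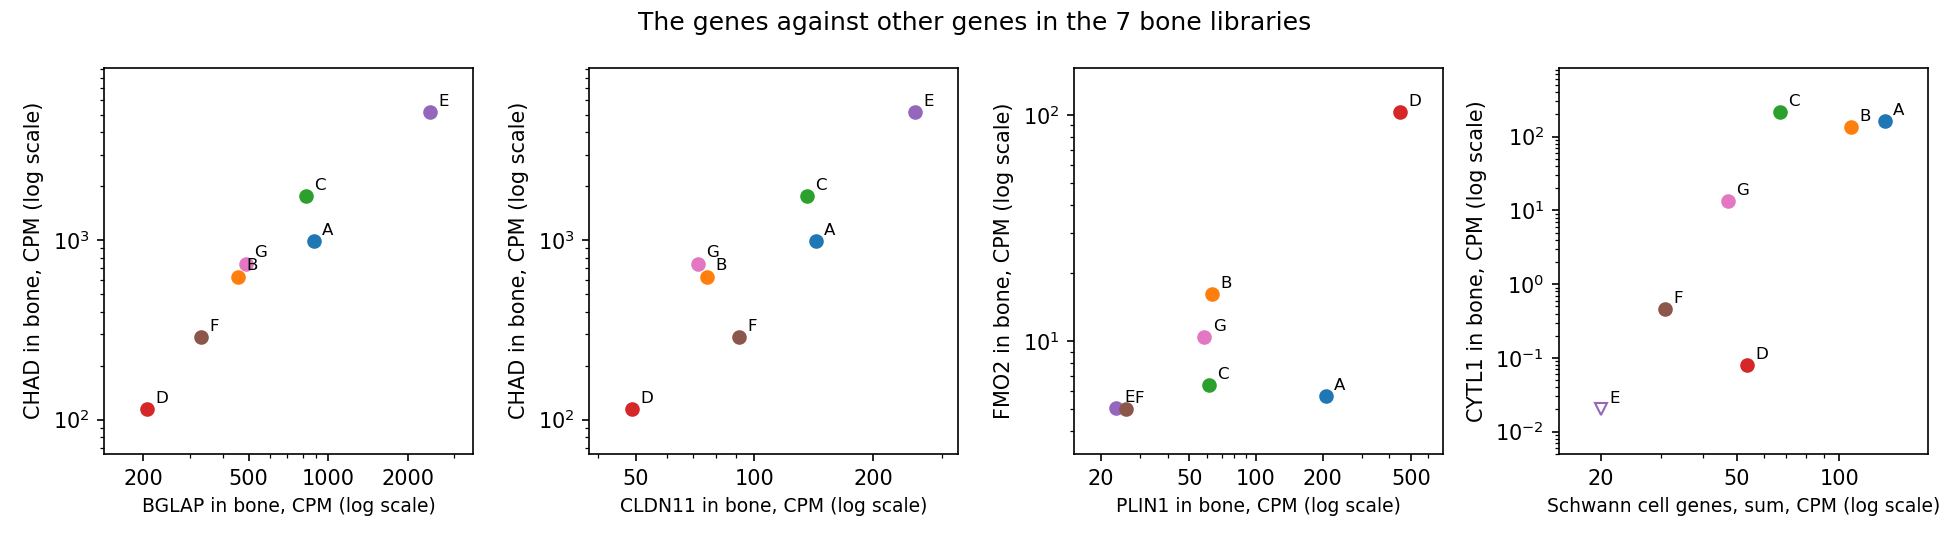
CPM in the 7 bones (both axes log scale) of CHAD against BGLAP, CHAD against CLDN11, FMO2 against PLIN1 and CYTL1 against summed Schwann cell genes, each point 1 dog; the open triangle is a CYTL1 value of 0. In the panel of FMO2, dog D stands alone at 103 CPM, whereas the bones spread along a line in the panel of CHAD and BGLAP.

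Named genes with the most similar pattern over the 7 bones were found by Pearson r among 2038 genes with a symbol and a mean of at least 1 CPM in bone, as a description. With MYOC these were LUZP2 (r = 0.964), ANGPTL1 (0.926), an angiopoietin-like secreted protein, and HSPB8 (0.924), a small heat shock protein. LUZP2 ran from 0.0905 CPM in E to 8.12 CPM in C. HSPB8 differed from MYOC in tumor, where it was higher with a log2 change of 1.18 (edgeR FDR 0.0372). With CYTL1 they included SOX10 (0.957), a transcription factor of Schwann cells and other neural crest cells, and CORIN (0.953), a membrane protease that cuts a heart hormone precursor, both at 10.6 CPM or below in every bone, and these r values span the clusters of bones described above for CYTL1. With CHAD they were AOC2 (0.983), an amine oxidase, EFHD1 (0.982), a calcium-binding protein of mitochondria, and ADRA1D (0.973), an adrenergic receptor. AOC2 ranged from 14.8 CPM in D to 515 CPM in E. With CLDN11 they were ARHGEF26 (0.977), an exchange factor for small GTPases, NMNAT3 (0.958), an enzyme of NAD synthesis, and BGLAP (0.957). With FMO2 they were WDR88 (0.959), LOC102156389 (0.954) and CACNA2D3 (0.935), a calcium channel subunit, and all had their highest bone value in dog D, at 14, 14.1 and 9.41 CPM. Of the 14 genes named here as most similar, 4 fell in tumor by the edgeR test, beside 20.6% of the 2038 genes searched and 1.79% of all genes tested, namely ADRA1D (log2 change -2.05, FDR 0.00793), NMNAT3 (-3.64, FDR 0.0346), BGLAP (-2.64, FDR 0.0117) and WDR88 (-3.87, FDR 0.0166).

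Of 110 other genes of cartilage, tendon, fibroblasts, small leucine-rich proteoglycans, the families of the 5 genes and the neighbourhood of FMO2 and MYOC, 22 have a symbol here. Symbols exist mainly for genes in the supplementary lists of changed genes, so these counts say nothing of the other 88. Of the 22, 5 (22.7%) fell in tumor and 0 rose, beside 1.79% of all genes tested that fell and, among the 2265 other genes with a symbol, 18.6% that fell and 15.7% that rose. The median log2 change was -1.90 for the 22 and -0.79 for the other genes with a symbol, and -0.05 over all genes tested; the choice of symbols enters the former values. By DESeq2, the tool behind the lists from which the symbols came, 19 of the 22 were called lower and 3 higher, beside 44.8% and 31.4% of the other genes with a symbol and 4.46% and 2.91% of all genes tested, so that calls of these genes by DESeq2 are no independent evidence. The verdicts on single genes below are those of edgeR. Among those that fell were APOD and PCOLCE2 of the fibroblast list, the claudin CLDN5 and the olfactomedin protein OLFM2, each lower in 7 of 7 dogs.

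APOD, a secreted lipid-binding protein, had 254 ± 84.1 CPM in bone and 31.9 ± 28.1 CPM in tumor (SD, n = 7 dogs), a log2 change of -3.31 (SE 0.36, edgeR FDR 0.00286). PCOLCE2, which enhances the trimming of procollagen, went from 73 ± 41.4 to 21.2 ± 10.1 CPM, a log2 change of -1.68 (SE 0.32, edgeR FDR 0.0191), a call that was lost without dog A, F or G. DPP4, SCARA5 and SERPINF1 of the same list did not pass the edgeR test but were called lower by DESeq2, at edgeR log2 changes of -2.22, -2.22 and -1.80.

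OLFM2, related to MYOC through its olfactomedin domain, went from 41.5 ± 28.2 to 6.39 ± 7.49 CPM (SD, n = 7 dogs), a log2 change of -3.13 (SE 0.46, edgeR FDR 0.0064). OLFML1 and GLDN of that family did not pass the edgeR test but were called lower by DESeq2, at -1.92 and -1.06 in edgeR. CLDN5, the claudin of blood vessel endothelium, went from 50.7 ± 13.4 to 20.1 ± 21.5 CPM, a log2 change of -2.05 (SE 0.46, edgeR FDR 0.0376), a call that was lost without dog B, C, D, E or F and is -1.34 with FDR 0.168 without the pairing by dog. CLDN10 (-2.67), CLDN4 (-1.04) and CLDN7 (1.93) did not pass the edgeR test, and DESeq2 called the former pair lower and CLDN7 higher.

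Among the cartilage genes, 0 of the 5 with a symbol passed the edgeR test in either direction. At an unadjusted edgeR p under 0.05, 5 were lower, beside 1181 of the 2265 other genes with a symbol and 2622 of all 27655 tested. DESeq2 called 5 lower, beside 44.8% of the other genes with a symbol and 4.46% of all genes tested. The choice of symbols enters these counts, so nothing is read from them. CLEC3A, a lectin of cartilage, came closest to passing the edgeR test with a log2 change of -5.46 (SE 1.35, edgeR FDR 0.0516). It was at 33.2 CPM in the bone of A, 12.2 in B, 74.9 in C and 8.3 in G, at 4.56 in F and at 0.476 and 0.407 CPM in D and E. MATN3 (-1.87), SOX5 (-2.02), CILP (-1.12) and COL9A1 (-3.79), at edgeR FDRs of 0.0555, 0.166, 0.0683 and 0.275, did not pass either. Of the tendon list THBS2 and COL12A1, a matrix glycoprotein and a fibril-associated collagen, had higher values in the tumor of 6 of 7 dogs, with log2 changes of 1.63 (edgeR FDR 0.344) and 1.12 (edgeR FDR 0.27) that did not pass, and DESeq2 called both higher. DCN and PRELP, the proteoglycans with a symbol, were at -1.16 (edgeR FDR 0.111) and -1.80 (edgeR FDR 0.351), and DESeq2 called both lower.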

How the data were processed

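Raw read counts per gene were deposited by the authors as 1 table of 14 libraries. Per the labels, reads of poly-A libraries were processed with Trimmomatic 0.39, HISAT2 2.2.1 and StringTie 1.3.3 on CanFam3.1. The samples were paired by dog, since bone and tumor came from the same animal; deviations of the same dog correlated with r of 0.0808 to 0.201. Genes with at least 1 count were fitted with edgeR 4.0.16 in R 4.3.3 (quasi-likelihood test, dog + tissue, TMM, Benjamini-Hochberg). DESeq2 1.42.0 was an alternative. The self-test used simulated data. The table holds Ensembl identifiers, and symbols for 2292 genes came from the study's gene lists. The 5 genes and the lists were chosen with earlier results of these data known. Genes were named when in those lists and called (up to 4 a list), or when among the 3 most similar in bone by r; listed genes that edgeR did not call were named outside this rule, after their values were seen. Limits at 0 use 3 counts. Other settings were no filter against filterByExpr, other size factors, pseudocounts, prior counts, no replicate block and leaving out each dog. Some genes that this rule names are not reported here.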

Additional observations from a re-analysis of the deposited data

Results flagged for a closer look

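Among 10 groups examined (5 genes in 7 bones and in 7 tumors), 2 held a library whose gap to its nearest neighbour was a large part of the range of the group by Dixon's criterion on log2 values. The criterion is set to flag about 1 in 20 groups by chance. That rate cannot be applied here, since the genes were proposed with their spread between bones in view. MYOC, CYTL1 and FMO2 in tumor also lay close to their floor. MYOC was 5.07 CPM in the bone of dog E, and the gap was 0.62 of the range. FMO2 was 103 CPM in the bone of dog D, and the gap was again 0.62 of the range. The bone of dog E was also highest in CHAD, CLDN11, BGLAP and summed osteocyte genes, and that of dog D in summed adipocyte genes. No explanation of these values was tested.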

How the results depend on the processing

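Of 116 alternative values other than those without 1 dog, 101 kept their direction and call or moved by less than the spread between dogs. DESeq2 called 1233 genes (4.46%) lower and 805 (2.91%) higher, and of the 22 listed genes 19 lower and 3 higher, their symbols coming mainly from the study's own lists of changed genes. Without the replicate block, 613 genes were higher and CLDN5 was not called, and CHAD, at -3.06, would not have met the FDR threshold on which it was chosen; the pairing comes from the animals. A prior count of 2 brought FMO2 to a log2 change of -7.16 and CYTL1 to -7.33, and DESeq2 gave CYTL1 -6.65. The SD of CYTL1 in bone was 4.88 with a pseudocount of 0.1 and 3.16 with 2. With plain totals, r was -0.83 for CHAD and FMO2 and -0.89 for CLDN11 and FMO2, and the latter had r = -0.75 with a pseudocount of 2 and -0.73 after a variance-stabilizing transformation. The cause of these shifts was not tested.

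With each dog left out, genes called lower numbered 327 to 420 (327 without B), genes called higher 224 to 330 (224 without B, 242 without F), and called listed genes 4 to 5. Fewer samples were tested there. Log2 changes were -8.45 to -7.17 for MYOC, -9.66 to -7.78 for CYTL1, -4.21 to -3.20 for CHAD, which stayed under the FDR threshold only without B or D, -4.35 to -3.66 for CLDN11 and -10.39 to -8.93 for FMO2. SDs in bone were 0.92 to 2.12 for MYOC, 3.85 to 4.41 for CYTL1, 1.39 to 1.93 for CHAD, 0.59 to 0.86 for CLDN11 and 0.64 to 1.67 for FMO2. Across bones, r was 0.81 to 0.95 for CHAD and CLDN11, -0.84 to -0.68 for CLDN11 and FMO2, -0.91 to -0.29 for CHAD and FMO2, -0.85 to 0.39 for MYOC and CHAD, -0.85 to 0.32 for MYOC and CLDN11, and 0.02 to 0.48 for MYOC and FMO2. Settings added after seeing the data gave r of 0.96 to 0.98 for CHAD and BGLAP, 0.91 to 0.98 for CLDN11 and BGLAP and 0.57 to 0.98 for FMO2 and adipocyte genes. Without the 2 farthest dogs, r was 0.59 for CHAD and CLDN11, 0.02 for CHAD and FMO2 and -0.68 for CLDN11 and FMO2. Depth limits tumor levels of MYOC, CYTL1 and FMO2, where a few counts or none were found.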
